A study of Mus musculus with 18 samples.

Results

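E0771 mammary carcinoma cells carrying induced wild-type MRTFA were compared with E0771 cells carrying the Y238A form, which the series' design text calls deficient in SRF binding. The comparison holds 6 of the 18 libraries of the series, 3 with wild-type MRTFA and 3 with Y238A MRTFA. It covers the 14576 of 32286 counted entries that passed a low-count filter set on these 2 groups. In the wild-type libraries the actin genes, the smooth muscle contractile genes and most cytoskeletal targets of SRF were higher than in the Y238A libraries. Interferon-stimulated genes were lower with wild-type MRTFA than with Y238A, 39 of the 41 tested. Set against empty vector, 0 of the 41 were lower and 16 higher with wild type, and 41 were higher with Y238A.

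The samples were mouse E0771 cells, labelled mammary carcinoma, with the retroviral vector pRetroX carrying MRTFA WT overexpression, MRTFA Y238A overexpression, or nothing (empty pRetroX). A second mammary carcinoma line, AT-3, was made with the same 3 constructs. Cultures of all 6 groups, empty vector included, had received doxycycline at 2 µg/ml for 48 h, so no group is without the drug. The labels do not say whether the lines are clones or whether the 3 libraries of a group came from separate cultures beyond naming 3 replicate sets. P-values therefore measure the spread between these libraries, which may be technical. The series' title links MRTFA-SRF driven expression to cell stiffness and to calcium and potassium ions.

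MRTFA is a coactivator that is held in the cytoplasm by monomeric actin. When actin polymerises, MRTFA enters the nucleus and binds SRF, a transcription factor that sits on CArG boxes, AT-rich sites with CC at one end and GG at the other, in the promoters of actin and other contractile and adhesion genes. SRF can also be joined by the ternary complex factors (Elk1, Elk3, Elk4), which link it to growth factor signalling and immediate early genes. Interferon signalling is a separate programme: type I interferon acts through transcription factors that switch on antiviral genes such as the OAS, IFIT and GTPase families.

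The CArG box was searched by name on both strands in RefSeq promoters (GRCm38.p6, 250 bases before to 50 after each gene's start). The pattern reads the same on both strands and was not looked for with mismatches. It was present in 85 of the 1675 genes higher with wild-type MRTFA that had a promoter in the table (5.07%), in 16 of 1940 lower genes (0.825%) and in 185 of the 10901 tested genes (1.7%). Among genes higher by at least 2-fold the share was 8.38% (45 of 537). Of the cytoskeletal target list 9 of 37 promoters held a box (24.3%), of the smooth muscle contractile list 1 of 19 (5.26%) and of the interferon-stimulated list 0 of 33. With a share of 1.7% over the tested genes, 0 in a list this short says little. These shares are descriptions, and a match is not a shown binding site. The 4 stretches below come from promoters of SRF itself and of 3 actins that were higher with wild-type MRTFA. They are shown because the box in each lies close before the gene's RefSeq start. The Actc1 stretch lies inside the span of that gene given below, which comes from GENCODE and begins further upstream. Each is 90 bases, 5′ to 3′ on the minus strand of GRCm38.p6, and capitals mark the CArG boxes, which begin at position -82 and -62 in Srf, -90 in Actg1, -73 in Acta1 and -47 in Actc1, counted from the RefSeq start.
Srf, chr17:46556215-46556304: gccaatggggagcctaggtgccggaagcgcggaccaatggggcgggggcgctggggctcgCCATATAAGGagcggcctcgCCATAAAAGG
Actg1, chr11:120348556-120348645: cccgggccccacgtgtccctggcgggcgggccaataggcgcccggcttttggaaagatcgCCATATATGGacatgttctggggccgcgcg
Acta1, chr8:123894819-123894908: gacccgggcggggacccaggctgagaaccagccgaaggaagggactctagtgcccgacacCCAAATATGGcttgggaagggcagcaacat
Actc1, chr2:114052893-114052982: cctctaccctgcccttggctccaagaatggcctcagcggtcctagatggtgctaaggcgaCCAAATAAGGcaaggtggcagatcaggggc

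The construct was counted as a separate entry named MRTFA. Levels are given as CPM, counts scaled to the size of the library after TMM normalization. The entry had 847, 685 and 698 CPM in the wild-type libraries, 341, 318 and 277 CPM in the Y238A libraries and 0.113, 0.1 and 0 CPM with empty vector. The entry was thus present in the 6 libraries labelled with a construct and at or near 0 with empty vector, but it does not show which form a library carries. The wild-type and Y238A groups did not overlap. It was 2.38-fold higher with wild type (log2 fold change 1.25 ± 0.21, SE, adjusted p = 0.000357). The amount of construct and the Y238A change therefore differ together between the groups, and their parts in the results cannot be told apart. The mouse gene Mrtfa had 55.9, 56.2 and 58.1 CPM with wild-type MRTFA and 59.3, 59.8 and 59.7 CPM with Y238A, a log2 difference of -0.07 ± 0.04 (adjusted p = 0.23). Its paralogue Mrtfb was slightly lower, at 47.2, 47.2 and 46.4 CPM against 54.1, 53.3 and 51.1 CPM (log2 -0.17 ± 0.05, adjusted p = 0.015). The call on Mrtfb was lost without wild-type replicate 3 (adjusted p = 0.05), in the fit of the 6 libraries alone (0.0861), with no low-count filter (0.0567) and without wild-type replicate 2 and Y238A replicate 1 (0.0867), the compared libraries with the most AT-3 transcripts.

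Library totals in E0771 lay between 81265466 and 107361933 counts. Traces of AT-3 transcripts were read from 229 genes that AT-3 expressed and E0771 hardly did. Wild-type replicate 2 held a median 0.581% and Y238A replicate 1 a median 0.286% of the AT-3 level of these genes, empty vector replicate 2 held 1.4%, and the other 6 E0771 libraries held 0% to 0.062%. Y238A replicate 2 stood apart from its group (a chi-square statistic over genes, divided by its degrees of freedom, was 58.7 and 69.4 for its pairs and 12.1 between replicates 1 and 3). Of the 9 epithelial markers listed for mammary carcinoma, Krt8 was abundant (608 ± 53 CPM with wild type, 378 ± 7.53 with Y238A, 308 ± 11 with empty vector, SD, n = 3 each), while its partner Krt18 averaged 0.140, 0.164 and 0.0258 CPM, Cdh1 0.470, 0.612 and 0.418 CPM and Epcam 1.60, 2.33 and 1.96 CPM in the same order. The mesenchymal filament gene Vim had 3337 to 3503 CPM with wild type and 4145 to 4242 CPM with Y238A. The other 8 epithelial markers averaged at most 7.49 CPM in any of the 3 groups, so most of the epithelial markers were near 0 in cells labelled carcinoma.

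Of the 14576 genes, 2218 were higher with wild-type MRTFA (15.2%) and 2462 were lower (16.9%), 32.1% in all, at an adjusted p under 0.05. Scaling by library totals gave 1873 higher and 3392 lower, so that 35.6% of calls were higher in place of 47.4%. Scaling and fitting the 6 libraries alone gave 2061 higher and 1502 lower, a share of 57.8%. The rises were larger than the falls: the median size of a called change was 0.56 on the log2 scale among higher genes and 0.33 among lower genes. At 2-fold or more, 774 genes were higher (5.31%) and 334 lower (2.29%), 7.6% in all. The 3 wild-type values did not overlap the 3 Y238A values in 6099 genes (41.8%), higher in 2794 (19.2%) and lower in 3305 (22.7%), and 288 called genes had overlapping groups. The median log2 fold change over all genes tested was -0.04. Without Y238A replicate 2 the counts were 2160 higher and 2663 lower, and without wild-type replicate 2 and Y238A replicate 1, the compared libraries of highest carry-over from AT-3, they were 1737 and 1806. RNA was measured in bulk, so a change in the number of cells in a state and a change in RNA per cell cannot be told apart.

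**Figure D1:**
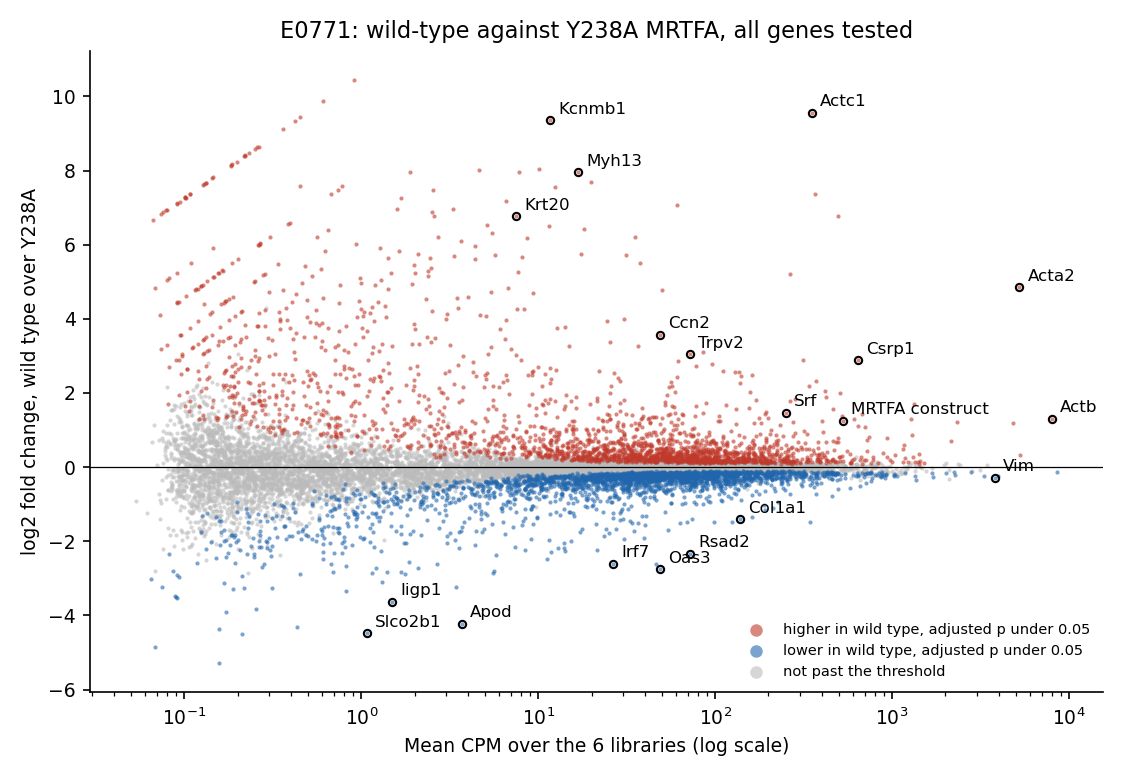
Each point is one of the 14576 genes tested, with the mean CPM over the 6 libraries on the horizontal axis (log scale) and the log2 fold change of wild type over Y238A on the vertical axis. Red and blue mark genes past an adjusted p of 0.05 in each direction. Actc1 and Kcnmb1 lie above 9, Slco2b1 and Apod below -4, and the diagonal rows at the left are genes with few or no Y238A counts, whose fitted size depends on the prior count.

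All 6 actin isoforms of the list were higher with wild-type MRTFA, with a median log2 fold change of 5.82, beside -0.04 over all genes tested. Actb, a cytoplasmic actin (chr5:142903115-142906754, GRCm38), had 11782, 11329 and 11132 CPM with wild type, 4717, 4293 and 4800 CPM with Y238A and 4967, 5178 and 5311 CPM with empty vector. The wild-type libraries stood above the other 6, and the gene was 2.48-fold higher than with Y238A (log2 1.31 ± 0.05, adjusted p = 2.92e-14). Actg1, the other cytoplasmic actin (chr11:120345690-120348542), had 3397, 3209 and 3184 CPM against 1438, 1302 and 1437 CPM (log2 1.23 ± 0.05, adjusted p = 1.74e-13). Both cytoplasmic actins were thus raised by little over 1 log2 unit, and the wild-type and Y238A values overlapped for neither gene.

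The muscle actins had larger fold changes. Acta2, smooth muscle alpha-actin (chr19:34241090-34255590), had 10772, 9822 and 9743 CPM with wild type, 395, 332 and 317 CPM with Y238A and 369, 429 and 397 CPM with empty vector. The Y238A and empty vector values overlapped, while the wild-type values lay 29.1-fold above Y238A (log2 4.86 ± 0.13, adjusted p = 6.75e-13). Per kilobase of annotated exon, Acta2 at 4605 CPM stood beside Actb at 4261 CPM in the wild-type cells, and far under it in Y238A cells, at 158 beside 1718 CPM. Actg2, the enteric smooth muscle actin (chr6:83512905-83536265), had 1036, 953 and 934 CPM with wild type against 16.9, 6.03 and 3.41 CPM with Y238A (log2 6.78 ± 0.62). Acta1, skeletal actin (chr8:123891769-123894751), had 811, 705 and 680 CPM against 8.64, 3.11 and 1.23 CPM (log2 7.38 ± 0.95). Actc1, cardiac actin (chr2:114047282-114053548), had 814, 650 and 637 CPM with wild type, 2.01, 0.361 and 0.249 CPM with Y238A and 0.0755, 0.0803 and 0.0482 CPM with empty vector (log2 9.56 ± 0.83, adjusted p = 1.24e-06). Y238A replicate 1, one of the libraries with AT-3 transcripts, was the highest of its group for these 3 genes. Without it the log2 fold changes were 7.68 for Actg2, 8.38 for Acta1 and 11.15 for Actc1. The isoforms are near identical in their coding sequence and how reads matching several of them were counted is not given in the sources used here, so the split of reads between them is uncertain.

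Srf itself was raised. The gene (chr17:46548329-46556175, minus strand) had 394, 361 and 347 CPM with wild-type MRTFA, 145, 113 and 139 CPM with Y238A and 165, 161 and 148 CPM with empty vector. The 3 wild-type libraries were the highest and the 3 Y238A libraries the lowest of the 9 E0771 libraries. Wild type was 2.77-fold over Y238A (log2 1.47 ± 0.07, adjusted p = 7.7e-12). Of the 7 genes of SRF, its MRTF-family partners and the ternary complex factors, 3 were higher and 2 lower. Elk1 had 25.6, 24.9 and 24.8 CPM against 18.9, 15.5 and 18.4 CPM (log2 0.51 ± 0.06, adjusted p = 1.15e-06), Elk3 was lower (-0.31 ± 0.08, adjusted p = 0.0041, overlapping groups) and Elk4 had a log2 value of 0.00 ± 0.07. The call on Elk3 was lost in the fit of the 6 libraries alone (adjusted p = 0.0794) and without both compared libraries of highest carry-over (0.0651). Myocd, the myocardin gene, had 40 counts over the 3 wild-type libraries and 0 over the 3 Y238A libraries. It was at least 13-fold higher against a floor of 3 counts per group, at 0.123, 0.158 and 0.117 CPM.

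Cytoskeletal targets of MRTF and SRF moved in 1 direction with 1 exception. Of the 40 genes listed and tested, 36 were higher (90%, beside 15.2% of all genes), 1 was lower, and the median log2 fold change was 1.47. The list was drawn from known targets, so it is not independent of what MRTFA is known to do. Csrp1, a LIM protein of the actin cytoskeleton, had 1222, 1106 and 1070 CPM with wild type, 165, 151 and 144 CPM with Y238A and 175, 182 and 171 CPM with empty vector (log2 2.89 ± 0.06, adjusted p = 2.45e-17). Itga5, the fibronectin-binding integrin subunit, had 592, 538 and 537 CPM against 119, 120 and 127 CPM (log2 2.19 ± 0.05). In both genes the wild-type group lay far from the other values. Vcl (vinculin, which couples adhesions to actin) had 421, 403 and 404 CPM with wild type and 122, 113 and 120 CPM with Y238A (log2 1.79 ± 0.04). Dstn, an actin-severing protein, was higher by 2.06 ± 0.05 and Pdlim5, a scaffold of actin filaments, by 2.02 ± 0.04 on the log2 scale. The 4 members without a rise were singled out after their values were seen: the membrane linker Ezr was lower (-0.43), and Ablim3 (0.18), Arhgdia (0.11) and Ablim1 (-0.08) did not pass the threshold.

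The smooth muscle contractile list held 22 tested genes of 23, and all 22 were higher, with a median of 3.08 on the log2 scale. Pln, the remaining member, had at most 6 counts in any of the 6 libraries. DESeq2 in place of edgeR called 19 of the 22, and the alternatives otherwise called 20 to 22. Tpm2 (a tropomyosin, which coats actin filaments) had 632, 609 and 605 CPM with wild type and 123, 120 and 126 CPM with Y238A (log2 2.32 ± 0.06). Tpm1 had 2136, 2050 and 1934 CPM against 659, 559 and 655 CPM (log2 1.71 ± 0.06). Lmod1, a leiomodin that nucleates actin in smooth muscle, had 123, 118 and 122 CPM with wild type and 1.45, 0.446 and 0.725 CPM with Y238A (log2 7.07 ± 0.52). Y238A replicate 1 was the highest of its group for Lmod1, which had a log2 value of 7.69 without it. For these 3 genes the Y238A values lay within or beside those of empty vector, as the plot of the cytoskeletal and muscle genes by library shows.

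**Figure D2:**
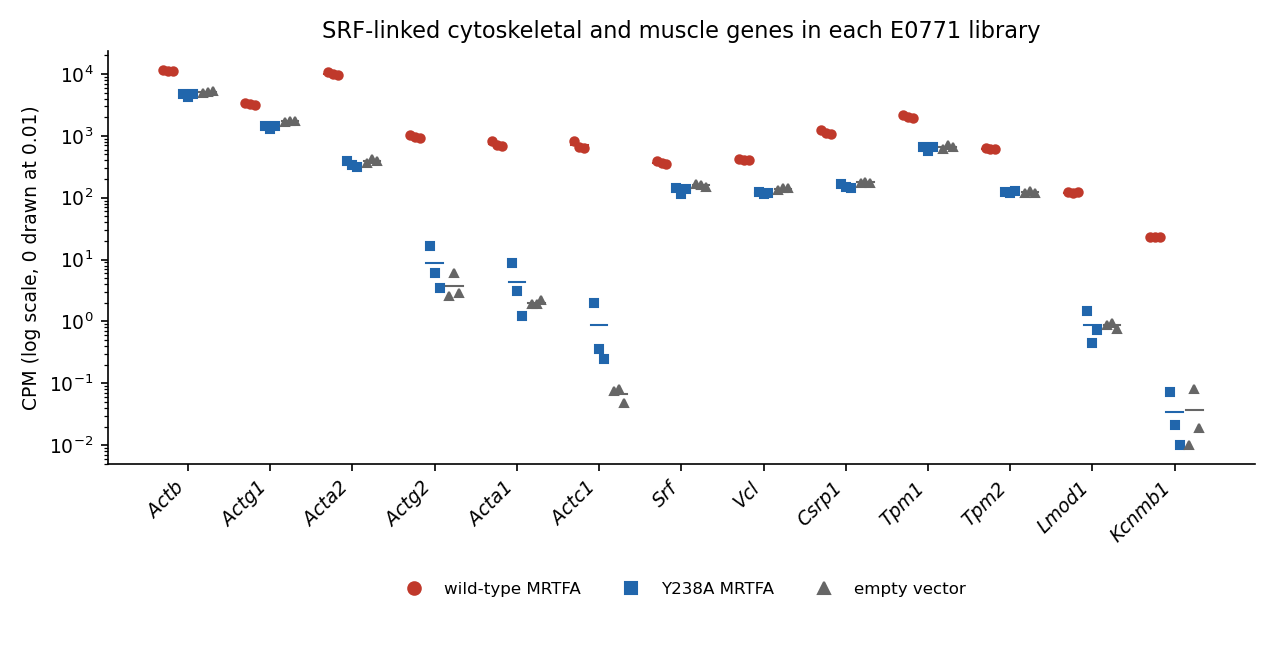
CPM on a log scale in each E0771 library, 3 per group, for 13 genes. Red circles are wild-type MRTFA, blue squares Y238A MRTFA and grey triangles empty vector, and short lines are group means. The wild-type points lie above the Y238A points for each gene shown, from 2.34-fold for Actg1 to several log units for Actc1 and Kcnmb1.

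Striated muscle genes rose less uniformly. Of 36 listed, 27 passed the filter, with a median of 1.22. Of these 14 were higher (51.9%, beside 15.2% of all genes) and 0 lower (beside 16.9%). With a filter of at least 1 CPM in 3 libraries, 13 were higher and the median of those tested was 3.62. Genes hardly present in either group had then left the list. A gene near 0 with Y238A could pass either filter only by its wild-type level, and could then only be called higher. The counts and medians of this list depend partly on that. Ldb3, a Z-disc protein, had 48.1, 43.5 and 46.3 CPM with wild type and 3.45, 2.2 and 3.33 CPM with Y238A (log2 3.94 ± 0.17). Actn2, the sarcomeric alpha-actinin, had 7.27, 6.38 and 6.3 CPM against 0.201, 0.318 and 0.521 CPM (log2 4.29 ± 0.27). Myl7, an atrial myosin light chain, was higher by 6.09 ± 0.44 and Myom1, an M-band protein, by 3.37 ± 0.23. For the 4 genes the wild-type and Y238A values did not overlap.

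Several of the steepest rises were in genes with no known contractile role. By size, among genes of at least 1 CPM, the 10 highest included Actc1, Kcnmb1, Optc, Tub, Dmd, Myh13, Pilra, Ifi27l2b and Ccna1. Myh13, an extraocular myosin heavy chain, had 35.7, 31.6 and 33.1 CPM with wild type and 0.146, 0.212 and 0.034 CPM with Y238A (log2 7.96 ± 0.47). Dmd, which encodes dystrophin, had 3.76, 4.06 and 3.44 CPM against 0.0366, 0 and 0 CPM (log2 7.97 ± 0.48, and 11.48 without Y238A replicate 1, which held its only counts). Optc, a small leucine-rich proteoglycan of the eye, had 22.6, 18.6 and 19.1 CPM against 0.146, 0.0424 and 0.0226 CPM (log2 8.04 ± 0.44, and 9.20 without Y238A replicate 1). Ccna1, a cyclin best known in the germ line, had 5.39, 4.74 and 5.11 CPM against 0.0731, 0 and 0 CPM (log2 7.47 ± 0.64, and 11.92 without Y238A replicate 1). Without that library Pilra, an inhibitory receptor of the immune system, was at 8.83 in place of 7.96 and Ifi27l2b at 8.78 in place of 7.68, and Tub, the tubby gene, was at 8.78 in place of 8.02 without Y238A replicate 3. In the Y238A group these genes were at or near 0, so the fitted sizes depend on a few reads and on the prior count.

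Adhesion and myosin regulation were raised in part. Among integrin and focal adhesion genes 22 of 39 were higher and 7 lower (median 0.50). Itga1, a collagen-binding integrin subunit, had 176, 169 and 157 CPM with wild type and 26.7, 20.9 and 25.3 CPM with Y238A (log2 2.79 ± 0.10), and Actn1, non-muscle alpha-actinin, was higher by 1.30 ± 0.04. Among genes of myosin and its regulation 9 of 24 were higher and 2 lower (median 0.08), with 4 lower without Y238A replicate 2. Myl6, an essential myosin light chain, had 882, 867 and 846 CPM against 356, 334 and 363 CPM (log2 1.30 ± 0.04), and Myh9, the non-muscle myosin heavy chain, had 2661, 2639 and 2641 CPM against 1576, 1698 and 1634 CPM (log2 0.69 ± 0.04). Ppp1r12a, the targeting subunit of myosin phosphatase, was higher by 1.01 ± 0.04. Formins and other nucleators were mixed, with 9 higher and 6 lower of 24. The Arp2/3 subunits Arpc5 (0.83 ± 0.04) and Actr3 (0.68 ± 0.04) were among the higher ones. In caveolae, the membrane pits that buffer tension, 7 of 10 genes were higher and 0 lower (median 0.48). Cav1 had 417, 425 and 423 CPM with wild type and 228, 183 and 236 CPM with Y238A (log2 0.97 ± 0.07). The calls on 2 of the 7, Cavin2 and Cav3, were lost in the fit of the E0771 libraries alone (adjusted p = 0.0642 and 0.0685) and when single libraries were left out: Cavin2 without wild-type replicate 2 (0.0654) or Y238A replicate 3 (0.0591), and Cav3 without wild-type replicate 1 (0.0828), Y238A replicate 1 (0.0647) or Y238A replicate 3 (0.0694).

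SRF also serves immediate early genes, and 25 of these were tested, with a median of 0.18. Of the 25, 13 were higher (52%, beside 15.2% of all genes) and 3 lower (12%, under the 16.9% of all genes). Fos had 3.49, 3.65 and 3.51 CPM with wild type and 0.713, 0.297 and 0.861 CPM with Y238A (log2 2.51 ± 0.23, adjusted p = 3.45e-08). Zfp36, which destabilises inflammatory mRNAs, had 38.7, 35.1 and 34.8 CPM against 15.4, 12.4 and 16.2 CPM (log2 1.30 ± 0.10). Fosl2 was higher by 0.64 ± 0.05. Targets of YAP and TEAD, a second mechanosensitive programme, were higher in 13 of 22 and lower in 2 (median 0.37). Ccn2, a matricellular growth factor modulator, had 104, 88.9 and 77.2 CPM with wild type and 10.1, 5.42 and 7.02 CPM with Y238A (log2 3.57 ± 0.32), and Ccn1 had 316, 265 and 241 CPM against 63.1, 42.6 and 42.1 CPM (log2 2.47 ± 0.20). Their relative Ccn4 went the other way (-0.29 ± 0.06, adjusted p = 0.00126), and Ccn5 had a log2 value of -0.62 ± 0.23 (adjusted p = 0.0553). Tead1, a DNA-binding partner of YAP, was higher by 1.19 ± 0.07, and Tgfb2, a TGF-beta ligand, by 1.57 ± 0.07.

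Of 42 collagen and matrix genes 11 were higher (26.2%, beside 15.2% of all genes) and 12 lower (28.6%, beside 16.9%). Lamb1, a laminin chain of basement membrane, had 90.5, 83.5 and 81.3 CPM with wild type and 22.6, 19.2 and 24.3 CPM with Y238A (log2 1.95 ± 0.07). In the other direction, Col1a1, the main chain of fibrillar collagen I, had 77.6, 68.5 and 79.2 CPM with wild type, 207, 196 and 196 CPM with Y238A and 97, 94.1 and 106 CPM with empty vector (log2 -1.41 ± 0.09, adjusted p = 5.95e-10). Here the Y238A libraries stood above the other 6. Col18a1 (117, 120 and 120 CPM against 252, 272 and 267 CPM, log2 -1.15 ± 0.06), Col5a3 (-1.10 ± 0.05) and Col16a1 (-0.93 ± 0.05) were also lower with wild-type MRTFA. For these 4 collagens the Y238A libraries were above those of empty vector as well. Of mesenchymal and EMT genes 11 of 30 were higher and 8 lower. The repressor Zeb1 was higher by 0.70 ± 0.06 on the log2 scale, while Myof, a membrane repair protein, was lower (-0.45 ± 0.05). Among epithelial genes 9 of 26 were higher and 1 lower. Pkp2, a desmosome plaque protein, had 247, 234 and 224 CPM against 44.5, 37.7 and 46.7 CPM (log2 2.45 ± 0.07), and the keratin Krt20 had 16.2, 13.5 and 15 CPM against 0.329, 0.0212 and 0.0226 CPM (log2 6.76 ± 0.59, and 9.32 without Y238A replicate 1).

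The ions in the series' title were followed through the genes that move them. Of 60 potassium channel genes listed, 19 passed the filter. Of these 6 were higher (31.6%, beside 15.2% of all genes) and 2 lower (a share under the 16.9% of all genes), with a median of 0.59. The filter was set on the 2 groups compared. A channel near 0 with Y238A could pass it only by its wild-type level, and could then only be called higher. The number lower was 1 when any of wild-type replicates 1, 2 and 3 or Y238A replicate 1 was left out. Kcnmb1, the beta subunit that tunes the large-conductance calcium-activated channel of smooth muscle, had 23.4, 23.4 and 23.3 CPM with wild type, 0.0731, 0.0212 and 0 CPM with Y238A and 0, 0.0803 and 0.0193 CPM with empty vector (log2 9.37 ± 0.43, adjusted p = 2.68e-11, and 10.89 without Y238A replicate 1). The gene was near absent outside the wild-type libraries. Kcnv2, a silent voltage-gated subunit, had 407 counts over the wild-type libraries and 2 over the Y238A libraries, a 198-fold ratio with a 95% counting interval of 54.4 to 1640. Both Y238A counts came from replicate 1. Kcnip3, a calcium-binding channel partner, was higher by 4.12 ± 0.30 on the log2 scale (4.78 without Y238A replicate 1), and Kcnh2, the hERG channel, had 52.1, 47.4 and 49.2 CPM against 33.7, 30.9 and 34.4 CPM (log2 0.59 ± 0.10). The summed level of the tested potassium channel genes was 370.9 to 376.4 CPM with wild type and 343.5 to 374.6 CPM with Y238A, so the sum overlapped while single members differed.

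Of 50 tested calcium pump, channel and store genes, 15 were higher (30.0%, beside 15.2% of all genes) and 11 lower (22%, near the 16.9% of all genes), with a median of 0.01. Trpv2, a cation channel that passes calcium, had 137, 125 and 123 CPM with wild type and 16.8, 11.6 and 17.9 CPM with Y238A (log2 3.05 ± 0.20, adjusted p = 2.39e-08). Jph2, which ties surface membrane to calcium stores, had 5.77, 4.17 and 4.34 CPM against 0.393, 0.552 and 0.317 CPM (log2 3.5 ± 0.31). Itpr3, a release channel of the endoplasmic reticulum, was lower, with 161, 175 and 178 CPM against 264, 261 and 273 CPM (log2 -0.63 ± 0.05). Tpcn1, a channel of endolysosomes, was lower too (log2 -0.46 ± 0.06). Of 46 calcium-binding and calmodulin genes 17 were higher and 13 lower. Plcb4, a phospholipase upstream of IP3, had 17.3, 14.7 and 15.5 CPM against 0.53, 0.127 and 0.249 CPM (log2 5.66 ± 0.26, and 6.39 without Y238A replicate 1), and Anxa3, a calcium-dependent membrane binder, was higher by 1.33 ± 0.05. In the list of the sodium-potassium pump, cotransporters and volume channels 2 of 25 were higher and 7 lower, with 3 lower without both compared libraries of highest carry-over. The chloride channel Ano1 was lower (log2 -0.78 ± 0.11). Lrrc8c, a volume-regulated channel subunit, was higher (1.18 ± 0.09).

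**Figure D3:**
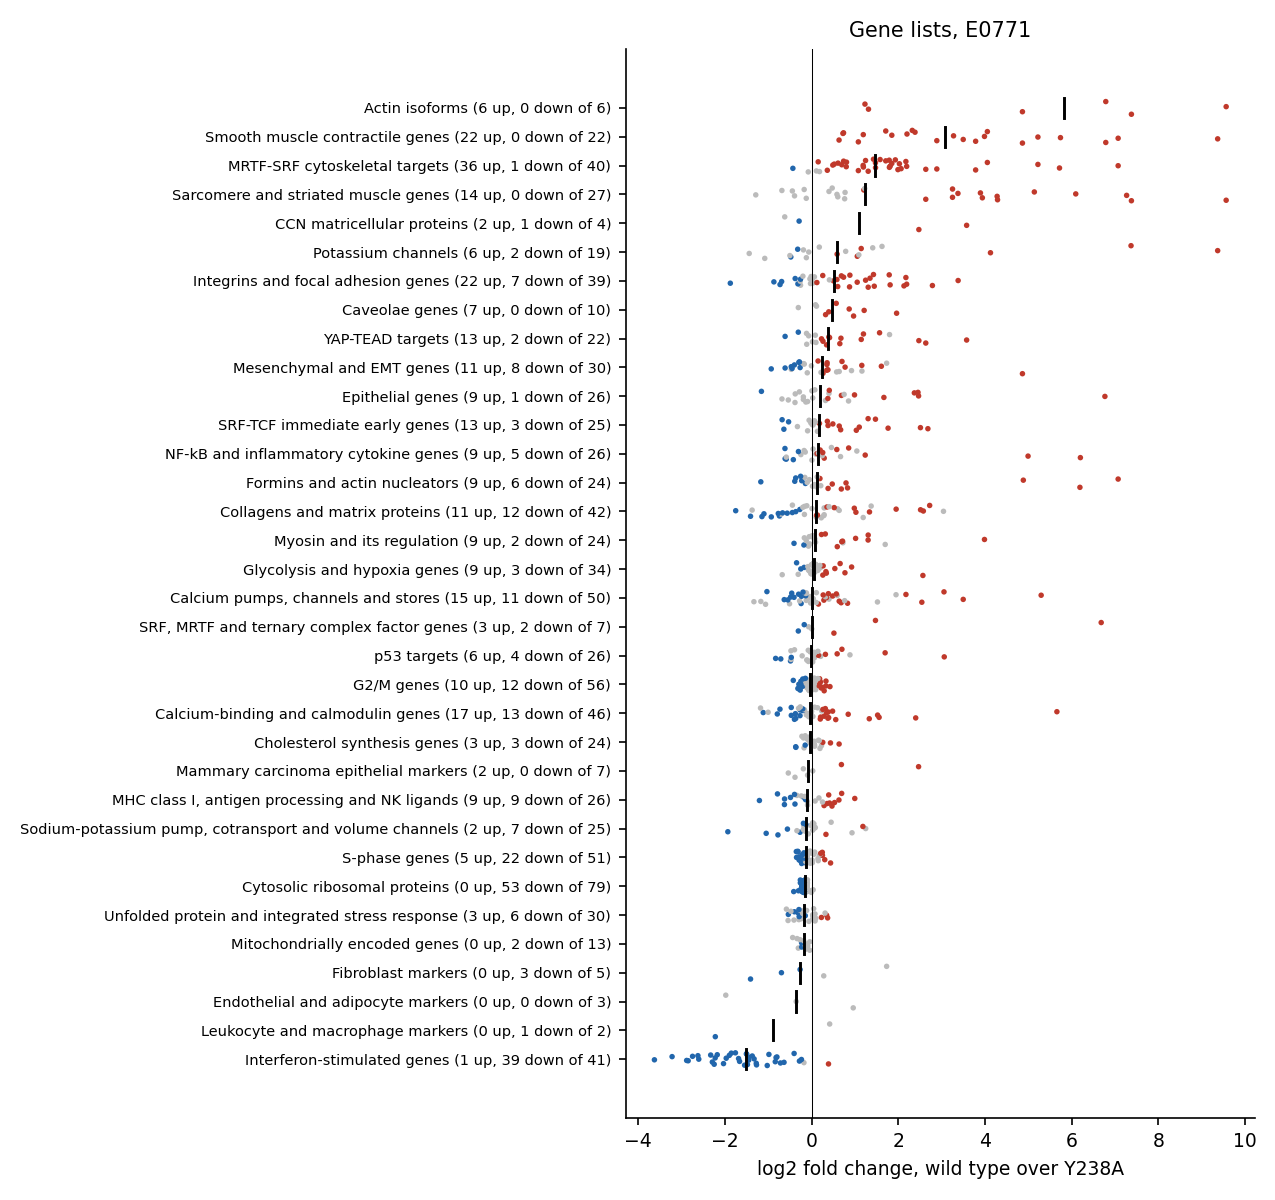
Each row is 1 of the 34 gene lists, each dot a tested member at its log2 fold change of wild type over Y238A, and each black bar the list's median. Red and blue dots passed an adjusted p of 0.05, grey dots did not, and the counts stand beside each name. The actin, smooth muscle and cytoskeletal target lists lie at the top with medians of 5.82, 3.08 and 1.47, and the interferon-stimulated genes at the bottom with -1.51.

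Interferon-stimulated genes formed the low end of the comparison. Of 41 tested, 39 were lower with wild-type MRTFA (95.1%, beside 16.9% of all genes), 1 was higher, and the median log2 fold change was -1.51. In 38 of the 41 the wild-type values lay below the Y238A values without overlap, beside 22.7% of all genes. Irf7, the transcription factor that amplifies the interferon response (chr7:141262706-141266481), had 7.11, 7.42 and 7.78 CPM with wild type, 46.5, 37.6 and 51.6 CPM with Y238A and 5.66, 5.58 and 5.12 CPM with empty vector. The Y238A libraries stood 6.08-fold above the wild-type libraries (log2 -2.61 ± 0.14, adjusted p = 1.56e-11), and the wild-type libraries lay between the other 2 groups, close to empty vector. Rsad2, the antiviral enzyme viperin, had 24.6, 22.7 and 24 CPM with wild type, 112, 136 and 111 CPM with Y238A and 25.9, 23.5 and 22.5 CPM with empty vector (log2 -2.33 ± 0.12). Oas3, a sensor of double-stranded RNA (chr5:120753098-120777661), had 11.8, 13.4 and 12.5 CPM with wild type and 82.8, 77.4 and 93 CPM with Y238A (log2 -2.75 ± 0.14). Irgm1, an interferon-inducible GTPase, had 23.5, 25.7 and 27.4 CPM with wild type and 82.1, 75.7 and 88.8 CPM with Y238A (log2 -1.69 ± 0.07). For these 4 genes the 3 Y238A values lay above those of the 6 other E0771 libraries.

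Other members were at lower levels. Iigp1, Oas2, Ifit3 and Ifit3b were named as among the 10 lowest fold changes, so their direction was fixed by that choice. Iigp1, another GTPase of the family, had 0.263, 0.128 and 0.281 CPM with wild type and 3.55, 1.68 and 3.08 CPM with Y238A (log2 -3.63 ± 0.43), and Oas2 had 0.474, 0.572 and 0.961 CPM against 7.41, 4.15 and 7 CPM (log2 -3.22 ± 0.35). Ifit3, an inhibitor of viral translation, was lower (log2 -2.85 ± 0.23), as was its neighbour Ifit3b (log2 -2.88 ± 0.32, and -3.47 without wild-type replicate 1). Ifit3 and Ifit3b are close copies, as are members of the Oas1 and Gbp families, and the split of reads between copies is uncertain. Singled out after their values were seen, Stat2 averaged 19.2 ± 1.31 CPM with wild type and 54.4 ± 14.0 CPM with Y238A, and Irf9 21.9 ± 1.64 against 55.0 ± 4.01 CPM (SD, n = 3 each). Both encode parts of the factor through which type I interferon acts. The 2 members not lower, named for the same reason, were the guanylate-binding protein Gbp2, which was higher (0.39 ± 0.12), and Ifi27 (-0.18 ± 0.08, adjusted p = 0.103). The call on Gbp2 was lost in the fit of the 6 libraries alone and without wild-type replicate 1 or Y238A replicate 2.

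The summed level of the list was 752.2 to 848.4 CPM with wild type, 1676 to 2176 CPM with Y238A and 741.9 to 803.3 CPM with empty vector. Set against empty vector, which shares libraries with the comparison above, 16 of the 41 were higher and 0 lower with wild-type MRTFA (median 0.29), and 41 were higher and 0 lower with Y238A (median 1.77). Those 2 comparisons called 13.3% and 7.64% of all genes higher, and 16.5% and 8.86% lower. The cytoskeletal target list ran the other way round: against empty vector 35 of 40 were higher and 2 lower with wild type (median 1.44), and 3 were higher and 13 lower with Y238A (median -0.07). Across the libraries left out in turn the number of interferon-stimulated genes lower with wild type stayed between 36 and 39. Without both compared libraries of highest carry-over it was 36.

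**Figure D4:**
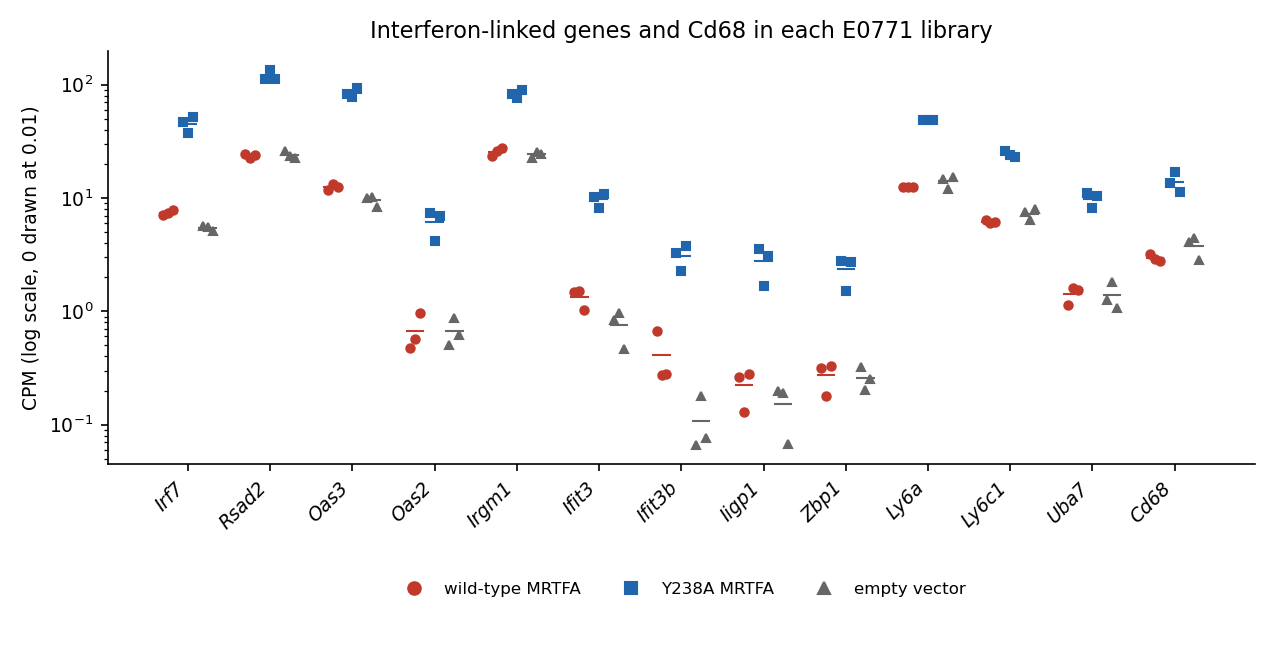
CPM on a log scale in each E0771 library, 3 per group, for 12 interferon-linked genes and Cd68. Red circles are wild-type MRTFA, blue squares Y238A MRTFA and grey triangles empty vector, and short lines are group means. The Y238A points lie above those of both other groups for each gene shown, as for Irf7 at 7.11 to 7.78 CPM with wild type against 37.6 to 51.6 CPM with Y238A.

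Genes upstream of the response were also looked at after its values were seen. Ifnb1, the gene of interferon beta, was too low to be tested, with 4, 0 and 0 counts in the wild-type libraries, 6, 30 and 14 in the Y238A libraries and 8, 4 and 10 with empty vector. Ifng, the gene of interferon gamma, had at most 6 counts in any E0771 library. Tmem173, which encodes the DNA-pathway adaptor STING, had 27.9, 30.2 and 29.4 CPM with wild type, 50.9, 35.6 and 55.2 CPM with Y238A and 29.9, 30.3 and 32.5 CPM with empty vector (log2 -0.70 ± 0.13, adjusted p = 0.000392). Its groups did not overlap, although Y238A replicate 2 was close to the wild-type values. The receptor gene Ifnar1 was slightly lower (-0.17 ± 0.05, adjusted p = 0.0203), and Cgas (-0.09 ± 0.09) and Ifnar2 (-0.16 ± 0.08) did not pass the threshold.

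The lowest genes by size were not only interferon targets. The 10 lowest of at least 1 CPM included Slco2b1, Apod, Iigp1, Oas2, Zbp1, Ifit3b, Enpp2, Ifit3 and Ifi206. Slco2b1, an organic anion transporter, had 0.176, 0 and 0.0937 CPM with wild type and 2.04, 1.61 and 2.5 CPM with Y238A (log2 -4.47 ± 0.63, and -5.50 without wild-type replicate 1). Apod, a lipid-binding lipocalin, had 0.597, 0.296 and 0.211 CPM with wild type, 6.1, 7.19 and 7.78 CPM with Y238A and 0.453, 0.341 and 0.328 CPM with empty vector (log2 -4.22 ± 0.29, adjusted p = 6.31e-10). The Y238A values of both stood clear of the other groups. Zbp1, a sensor of Z-form nucleic acid, had 0.316, 0.178 and 0.328 CPM against 2.77, 1.52 and 2.74 CPM (log2 -3.09 ± 0.44).

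Markers of other cell types were read beside the interferon result. Of the 7 leukocyte and macrophage markers, 2 passed the filter. Cd68, a lysosomal protein abundant in macrophages, had 3.2, 2.9 and 2.78 CPM with wild type, 13.4, 16.8 and 11.3 CPM with Y238A and 4.07, 4.47 and 2.83 CPM with empty vector (log2 -2.22 ± 0.15). The defining markers were near 0: Ptprc averaged 0.0183 CPM with wild type and 0.0226 with Y238A, Adgre1 0.0197 and 0.00609, and Csf1r 0.338 and 0.254 CPM. The summed level of the list was 3.08 to 3.51 CPM with wild type and 11.4 to 17.3 CPM with Y238A, nearly all of it Cd68. Of the 5 fibroblast markers tested, Col1a1, Pdgfra and Pdgfrb were lower with wild-type MRTFA. Col3a1 had 699, 667 and 684 CPM with wild type and 588, 469 and 635 CPM with Y238A (log2 0.28 ± 0.12, adjusted p = 0.105). It was called higher in the fits of the 9 E0771 libraries or the 6 compared and with the replicate block, under which 2 markers of the list were higher. The groups of Pdgfra and Pdgfrb overlapped, and both calls were lost in the fit of the 6 libraries alone (adjusted p = 0.0682 and 0.0972). Pdgfrb was also lost without wild-type replicate 1 (0.169), wild-type replicate 2 (0.11), Y238A replicate 1 (0.0506) or Y238A replicate 3 (0.157). The summed level of the list was 795.4 to 828.2 CPM with wild type and 728.0 to 923.0 CPM with Y238A. Thy1 averaged 0.226 and 0.0653 CPM, and Dcn and Lum were at or under 0.0176 CPM in both groups. The part of such cells in the interferon result was not tested beyond these values. Endothelial and adipocyte markers gave 0 calls in 3 tested genes, with a summed level of 0.888 to 1.5 CPM with wild type and 0.929 to 1.94 CPM with Y238A.

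Among 26 class I, antigen processing and natural killer ligand genes, 9 were higher and 9 lower with wild-type MRTFA, with 5 lower in the fit of the E0771 libraries alone. B2m, the light chain of class I molecules, had 547, 538 and 542 CPM with wild type, 383, 385 and 407 CPM with Y238A and 351, 354 and 356 CPM with empty vector (log2 0.47 ± 0.03, adjusted p = 9.34e-10). The class I heavy chains H2-K1 (0.41 ± 0.04) and H2-D1 (0.35 ± 0.04) were higher too, as was the natural killer ligand Ulbp1 (0.69 ± 0.07). Reads shared between class I genes make their split uncertain. Among NF-kB and inflammatory genes 9 of 26 were higher (34.6%) and 5 lower (19.2%, near the 16.9% of all genes). The number lower was 2 without wild-type replicate 1 and 3 without Y238A replicate 2. Csf3, the granulocyte growth factor, had 5.83, 5.22 and 4.96 CPM with wild type and 0.174, 0.0212 and 0 CPM with Y238A (log2 6.20 ± 0.66, and 8.76 without Y238A replicate 1), while Tnfaip2 was lower (-0.62 ± 0.06).

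Growth and housekeeping lists moved by small amounts and with single libraries. Among S-phase genes 5 of 51 were higher (9.80%, beside 15.2% of all genes) and 22 lower (43.1%, beside 16.9%), with a median of -0.13. The number lower was 13 without wild-type replicate 1, 11 without both compared libraries of highest carry-over and 10 in the fit of the 6 libraries alone, and the number higher was 3 without wild-type replicate 3 and 2 without Y238A replicate 2. Pcna, the replication clamp, had 148, 147 and 149 CPM with wild type and 188, 173 and 182 CPM with Y238A (log2 -0.29 ± 0.04, adjusted p = 3.76e-06). G2/M genes gave 10 higher (17.9%) and 12 lower (21.4%) of 56, near the shares over all genes, with 4 lower in the fit of the 6 libraries alone. Cytosolic ribosomal protein genes gave 0 higher and 53 lower of 79 with a median of -0.16, and the number lower moved between 20 in the fit of the 6 libraries alone and 75 with library totals. It was 38, 41 and 40 without wild-type replicates 1, 2 and 3, and 42 without Y238A replicate 2. Y238A replicate 2 had the highest level of Rpl13a (603, 611 and 615 CPM with wild type, against 746, 932 and 760 CPM with Y238A). Of p53 targets 6 of 26 were higher and 4 lower, 38.5% called beside 32.1% of all genes, with the death receptor Fas at 9.37, 8.76 and 9.83 CPM against 1.1, 0.764 and 1.51 CPM (log2 3.06 ± 0.16). Of glycolysis and hypoxia genes 9 of 34 were higher and 3 lower (1 lower without wild-type replicate 1, wild-type replicate 2 or Y238A replicate 3), with the vasodilator peptide gene Adm at 221, 218 and 223 CPM against 33.7, 29.8 and 48.4 CPM (log2 2.57 ± 0.19) and the glucose transporter Slc2a1 higher by 0.66 ± 0.04. The stress response list gave 3 higher and 6 lower of 30, with 7 higher without Y238A replicate 2 and 11 lower without Y238A replicate 3. Cholesterol synthesis gave 3 higher and 3 lower of 24 (12.5% each way, under the shares over all genes), with 5 lower without Y238A replicate 2. Mitochondrially encoded genes gave 0 higher and 2 lower of 13. The 2 mitochondrial calls, mt-Nd2 and mt-Co2, were each lost without wild-type replicate 3 (adjusted p = 0.062 and 0.0782), and mt-Co2 also without wild-type replicate 1 (0.109), Y238A replicate 1 (0.138) or Y238A replicate 3 (0.123).

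Ranked by CPM, which is not corrected for transcript length, the first 5 genes past the threshold in each direction were Actb, Gapdh, Acta2, Flna and Actg1 among the higher and Eef1a1, Eef2, Vim, Fth1 and Pabpc1 among the lower. Flna, the actin cross-linker filamin A, had 6885, 6744 and 6594 CPM with wild type and 2791, 3247 and 2807 CPM with Y238A (log2 1.19 ± 0.05). Gapdh, a glycolytic enzyme often used as a reference gene, had 6003, 5771 and 5891 CPM against 4584, 4716 and 4778 CPM (log2 0.33 ± 0.04, adjusted p = 4.44e-07). The translation factor Eef1a1 had a log2 value of -0.13 ± 0.05 (adjusted p = 0.0445) and the poly(A)-binding protein Pabpc1 one of -0.13 ± 0.04 (0.0274), and both calls were lost when Y238A replicate 2 was left out (adjusted p = 0.203 and 0.117) or wild-type replicate 1 (0.135 and 0.089) or wild-type replicate 2 (0.0874 and 0.0785). Eef1a1 was lost without wild-type replicate 3 as well (0.0694).

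The same difference was measured in AT-3 with libraries of its own. There 5162 genes were higher with wild-type MRTFA than with Y238A (35.4%) and 4986 lower (34.2%), 69.6% in all. Of the 2218 genes higher in E0771, 1779 were higher in AT-3 (80.2% of the E0771 list and 34.5% of the AT-3 list) and 210 were lower (9.47%). Of the 2462 lower in E0771, 1703 were lower in AT-3 (69.2% and 34.2% of the 2 lists) and 314 were higher (12.8%). The difference between lines itself, E0771 minus AT-3, passed the threshold in 7910 genes (54.3%), with a larger value in E0771 in 3810 (26.1%) and a smaller one in 4100 (28.1%). The ratio of the construct between forms did not differ between lines past the threshold (difference of the 2 log2 fold changes -0.16 ± 0.29, adjusted p = 0.67). Its level was higher in AT-3. There the wild-type libraries averaged 5700 ± 1558 CPM and the Y238A libraries 2145 ± 196 CPM. In E0771 they averaged 744 ± 90.2 and 312 ± 32.5 CPM (SD, n = 3 each). The line and the level of construct therefore differ together, and their parts in the differences between lines cannot be told apart.

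Cytoplasmic and smooth muscle actins moved by similar sizes in the 2 lines. The difference of log2 fold changes, E0771 minus AT-3, was -0.03 ± 0.06 for Actb and 0.14 ± 0.16 for Acta2, and 0 of the 6 actins passed that test. Srf was raised less in E0771: its log2 fold change was 1.47 beside 2.69 in AT-3 (difference -1.22 ± 0.10, adjusted p = 5.57e-09), where it averaged 612 ± 4.32 CPM with wild type and 94.7 ± 4.59 CPM with Y238A. Of the 40 cytoskeletal targets 13 had a larger and 15 a smaller value in E0771. Of the 22 smooth muscle genes 0 had a larger and 11 a smaller one. The 41 interferon-stimulated genes were lower in 39 in AT-3 too, with a median of -2.80 there. Of these 41, 31 had a larger value in E0771, which means a smaller gap between the 2 forms, and 1 a smaller value. Rsad2 differed by more between the forms in AT-3, with 0.0470 ± 0.0645 CPM in wild-type and 3.87 ± 0.354 CPM in Y238A libraries (difference 4.05 ± 0.39, adjusted p = 5.53e-08). That wild-type level is near 0, so the size depends on few reads. For Irf7 the 2 lines did not differ past the threshold (0.20 ± 0.21, adjusted p = 0.44). The surface protein gene Ly6a, interferon-inducible and a marker of stem and progenitor cells, had 12.6 CPM in each wild-type library and 48.8, 48.3 and 48.5 CPM with Y238A in E0771, and 1.4 ± 0.154 against 255 ± 14.2 CPM in AT-3 (difference 5.57 ± 0.12).

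**Figure D5:**
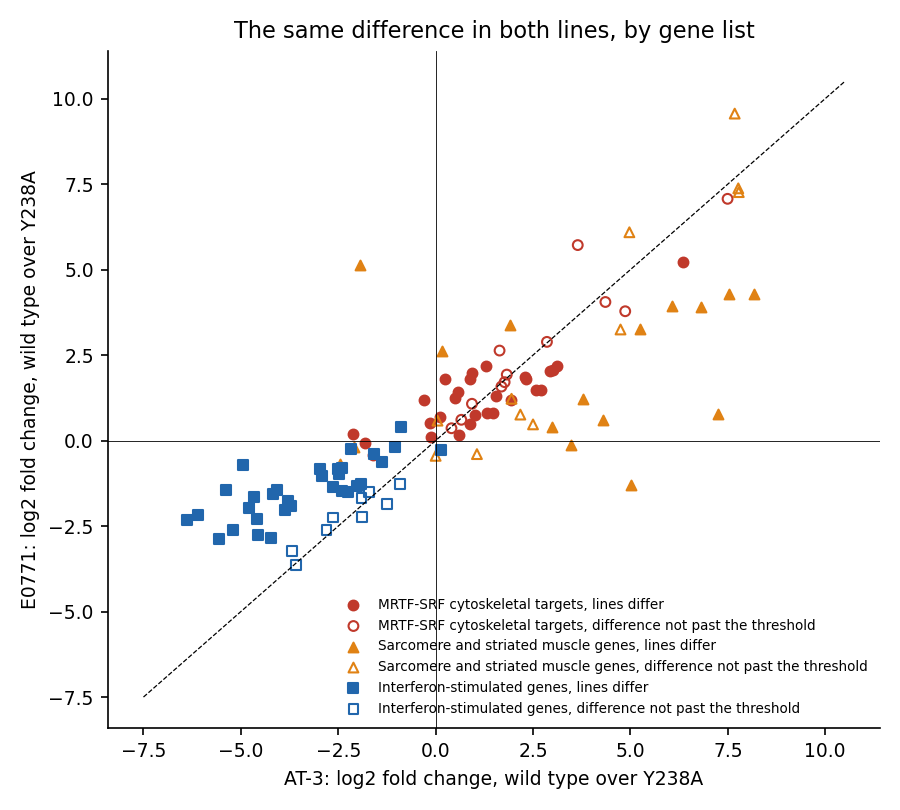
Each symbol is a gene of 1 of 3 lists, with the log2 fold change of wild type over Y238A in AT-3 on the horizontal axis and in E0771 on the vertical axis. Filled symbols differ between lines past an adjusted p of 0.05, open ones do not, and the dashed line marks equal values. Most interferon-stimulated genes lie above the line at the lower left (31 of 41 with a larger value in E0771), and the cytoskeletal targets lie on both sides of it (13 larger and 15 smaller).

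Col18a1 moved in opposite directions in the 2 lines. It was lower with wild type in E0771 (-1.15) and higher in AT-3 (2.79 ± 0.07, with 207 ± 19.0 against 30.0 ± 2.61 CPM), a difference of -3.93 ± 0.09. Trpv2 was higher in both, but by less in E0771, where the Y238A level was 15.4 ± 3.36 CPM, than in AT-3, where it was 0.422 ± 0.34 CPM (difference -4.69 ± 0.36, adjusted p = 5.98e-08).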

How the data were processed

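Gene expression was measured by mRNA sequencing. The labels' protocols name RNeasy for RNA purification and NuGen Universal Plus mRNA for library construction. Per the submitters' processing notes, STAR, featureCounts and the build GRCm38 were used. Versions, annotation release, strandedness and the making of the MRTFA entry are not given in the sources used here. The authors deposited raw counts per gene for 18 libraries in 32286 entries, of which 32158 matched a symbol by Ensembl ID. Positions and exon lengths came from GENCODE (GRCm38). Between 61.9% and 64.6% of nonzero counts in E0771 were even, as they would be if both mates of a pair were counted. Counting intervals, which cover counting error only, would then be too narrow.

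Counts were fitted in R 4.3.3 with edgeR 4.0.16 (TMM scaling, robust quasi-likelihood F test, 6 group means over 18 libraries, 12 residual degrees of freedom). The 14576 entries kept passed edgeR's filterByExpr with the 2 groups as its design, its count minimum being 10 and its total minimum 15. A gene near 0 in 1 group could pass only through the other, so the shares of list members called depend partly on the filter. CPM are counts over TMM-scaled totals. Benjamini-Hochberg adjustment ran over the 14576 p-values of a comparison, and the threshold was 0.05. Replicate numbers formed no term of the main model. On simulated data 67, 67 and 66 genes were changed 1.5-fold, 2-fold and 4-fold in E0771 wild type. The test recovered 56.7%, 70.1% and 86.4% of them, with 9 false calls among the unchanged of the 14576 genes. For the difference between lines it recovered 46.3%, 61.2% and 69.7%, with 5 false calls. Far fewer genes were changed there than the 4680 called in E0771, so these shares hold for that setting only.

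The comparison and the 34 gene lists were chosen with earlier results of these data known. Named were the construct, Srf and the MRTF genes, the 10 highest and 10 lowest fold changes past the threshold with at least 1 CPM and groups that do not overlap, the 5 most abundant genes each way, up to 4 members of each list by smallest p (all tested members of lists of 10 or fewer) and the 5 largest line differences each way; others are said to have been singled out after their values were seen. Fewer are named than the rule allows, for room. Alternatives were DESeq2 1.42.0, its size factors, library totals, no filter, a filter of at least 1 CPM in 3 libraries, a filter on all 6 groups, fits of the 9 E0771 libraries or the 6 compared, a replicate block, and libraries left out. limma 3.58.1 was loaded with edgeR, and figures and promoter searches used Python 3.11.15, pandas 2.3.3 and matplotlib 3.10.9. A few genes that the rule names are not reported here.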

Additional observations from a re-analysis of the deposited data

Results flagged for a closer look

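The difference between the lines, tested as E0771 minus AT-3 of the log2 fold change of wild type over Y238A, passed an adjusted p of 0.05 in the direction of E0771 in 3810 genes and in the direction of AT-3 in 4100. The genes below had the largest such differences among genes also past the threshold in E0771 with a mean of at least 1 CPM over the 6 libraries, predicted gene models left aside.

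Dmd had a difference of 6.30, with 3.75 and 0.0122 CPM (wild type and Y238A) in E0771 against 15 and 4.70 CPM in AT-3. It was 9.75 without wild-type replicate 2 and Y238A replicate 1 of E0771, the compared libraries of highest carry-over. Y238A replicate 1 held the only counts of its group. Ly6c1, a surface protein of the Ly6 family, differed by 5.76, with 6.19 and 24.4 CPM against 1.31 and 284 CPM. Ly6a differed by 5.57. Mgst1, a glutathione transferase, differed by 4.56, with 18.6 and 32.5 CPM against 0.565 and 23.5 CPM. Uba7, the activating enzyme of ISG15, differed by 4.54, with 1.43 and 9.87 CPM against 0.0558 and 9.84 CPM.

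In the other direction, Apod had a difference of -9.71, with 0.368 and 7.03 CPM in E0771 against 1.61 and 0.0346 CPM in AT-3. Thsd4, a matrix protein of microfibrils, differed by -7.32, with 1.64 and 2.84 CPM against 25.5 and 0.274 CPM. Its call in E0771 was lost without wild-type replicate 2 (adjusted p = 0.0547), wild-type replicate 3 (0.0541) or Y238A replicate 1 (0.0738). Slco2b1 (-11.21), Rhox2h (-7.22) and Tmem156 (-6.83) had 0 counts in the 3 AT-3 Y238A libraries, so the fitted size depends on the prior count. In E0771 they had 0.0898 and 2.05 CPM, 19.6 and 12 CPM, and 5.07 and 2.61 CPM, and in AT-3 with wild type 0.139, 0.312 and 0.285 CPM.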

How the results depend on the processing

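Under the alternatives the number of genes higher lay between 1737 (without both compared libraries of highest carry-over) and 2462 (DESeq2). The number lower moved past 1.5 times its value in 1 alternative, to 1502 in the fit of the 6 libraries alone. That fit re-estimated both the scaling and the spread, and its median log2 fold change over all genes was -0.00286. Leaving out single libraries gave 1919 to 2171 higher and 1993 to 2663 lower, 3577 to 3883 and 3879 to 4138 for the difference between lines, and 1.15 to 1.32 for the log2 fold change of the construct. Same-numbered libraries of the 2 E0771 groups deviated with correlations of -0.06, -0.04 and 0.43, and differently numbered ones with -0.253 to 0.299. These values do not settle whether the numbers mark shared sets. With the replicate block 2282 genes were higher and 2568 lower. The median over all genes moved from -0.04 to -0.09 with library totals. Named genes that changed sign were not past the threshold in either case: Elk4 was -0.050 with library totals, -0.011 with at least 1 CPM and -0.00071 without both compared libraries of highest carry-over, and Krt14 was -0.027 with library totals. When single libraries were left out, Elk4 ranged over -0.066 to 0.067, Krt14 over -0.32 to 0.46, Cldn7 over -0.72 to 0.32, Ehd2 over -0.021 to 0.178 and Krt18 over -0.56 to 0.23. The cause was not tested. DESeq2 gave no adjusted p for 50 genes, Acta1 among them. With 3 libraries per group, 1.5-fold changes were often missed on simulated data, in which few genes were changed. In the data 1137 of the 2218 higher and 1831 of the 2462 lower calls were under 1.5-fold.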
